A study of Homo sapiens with 18 samples.

Results

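The genes of lactate and proton export were followed in 3 human cell lines kept in normoxia or hypoxia. Listed by name for their roles, with no threshold on a measured value but with earlier results of these data known, they were the 8 genes SLC16A1, SLC16A3, SLC16A7, BSG, EMB, SLC4A2, SLC4A4 and SLC4A7, of 23106 genes listed in each sample. PolyA+ RNA was sequenced from 18 samples, with 3 normoxic and 3 hypoxic samples of each line. HKC-8 is a kidney proximal tubule line, HepG2 a hepatocellular cancer line, and RCC4 a kidney cancer line that the labels give as RCC4+VHL in normoxia and hypoxia alike, VHL being the tumour suppressor that marks HIF-α subunits for destruction. The parental RCC4 line is known by a mutation in the coding region of its own VHL gene, and the labels give no added agent for any line. The experiments are described as done in triplicate, with no statement of whether each replicate was a separate culture, so that p-values measure only the spread between these samples, which may be technical. The sample characteristics give hypoxia as 0.5% oxygen for 16 h in HKC-8 and HepG2 cells and as 1% for 24 h in RCC4 cells, whereas the HKC-8 titles give 0.1%, and the study's text describes the RNA-seq exposure as the same in all 3 lines. A contrast of RCC4 with another line in hypoxia, or in the response to it, therefore cannot be told apart from a contrast of exposures. By the titles, which give 0.5% for HepG2 cells, the same holds for HKC-8 against HepG2 cells.

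Cells that rely on glycolysis turn pyruvate into lactate and must move lactate and protons out together. The monocarboxylate transporters (MCT) of the SLC16 family carry 1 proton with each lactate. They include MCT1 (SLC16A1), which is widely expressed and works in either direction, MCT4 (SLC16A3), typical of glycolytic cells and of export, and MCT2 (SLC16A7), which has a high affinity for its substrates. MCT1 and MCT4 reach the plasma membrane with basigin (BSG, CD147), and MCT2 with embigin (EMB). Intracellular pH is also set by bicarbonate transport of the SLC4 family. SLC4A2 (AE2) exchanges chloride for bicarbonate and loads acid, while SLC4A4 (NBCe1, the electrogenic sodium-bicarbonate cotransporter of the proximal tubule) and SLC4A7 (NBCn1, electroneutral) bring bicarbonate into most cells. The heterodimer HIF, stabilised in hypoxia, binds DNA at ACGTG or GCGTG.

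On GRCh37, the build of the counts, SLC16A1 lies at chr1:113454469-113500215 (minus strand), SLC16A3 at chr17:80175810-80219005 (plus), SLC16A7 at chr12:59989810-60183636 (plus), BSG at chr19:571277-583494 (plus) and EMB at chr5:49692026-49739082 (minus). SLC4A2 lies at chr7:150754297-150773613 (plus), SLC4A4 at chr4:71928384-72437804 (plus) and SLC4A7 at chr3:27414212-27525911 (minus). All 8 are annotated as protein-coding genes, and counts were taken over their exons. Exons of SLC16A3 overlap those of CSNK1D on the opposite strand, and the strand setting of the counting is not given in the sources used here. CSNK1D did not pass the test in any line, with log2 fold changes of -0.03 (HKC-8), -0.08 (RCC4) and 0.12 (HepG2) (edgeR adjusted p = 0.850, 0.138 and 0.131). In normoxia CSNK1D was higher in HepG2 cells than in HKC-8 (log2 difference 0.39, edgeR adjusted p = 0.000246) and RCC4 cells (1.01, edgeR adjusted p = 1.91e-08), the same direction as SLC16A3 below, and its part in the SLC16A3 counts was not tested.

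Promoter sequences are shown because HIF binds DNA at such letters and SLC16A3 was the member that rose in every line. Whether HIF had a part in any change of a member was not tested. RefSeq start sites on GRCh38.p14 were matched for 6 of the 8 members, all but SLC16A1 and EMB, and the 250 bases before each start were searched for ACGTG on either strand, overlapping matches such as the palindrome CACGTG being counted as 1 place. Of all 35116 promoter entries of that length, 18.5% held ACGTG and 2.61% held it in 2 or more places, and 43.2% held ACGTG or GCGTG. Of the 5 entries of SLC16A3, 1 held it, in 2 places starting 68 and 55 bases before the start. Of the 2 entries of BSG 1 held it, and of the 4 entries of SLC4A2, 2 overlapping ones that share 2 places held it. None of the 2 entries of SLC16A7, the 5 of SLC4A4 or the 2 of SLC4A7 did, which says only that these letters are not in those windows. With GCGTG counted as well, 3 of the 5 entries of SLC16A3, 1 of 2 of BSG, 4 of 4 of SLC4A2 and 1 of 2 of SLC4A7 held a match, and none of SLC16A7 or SLC4A4. For each of the 3 genes with an ACGTG match, the entry with the most ACGTG places is printed 5′ to 3′. Each ACGTG read on either strand is in capitals, and a match is no evidence of binding.
SLC16A3 (chr17:82228792-82229041, plus strand): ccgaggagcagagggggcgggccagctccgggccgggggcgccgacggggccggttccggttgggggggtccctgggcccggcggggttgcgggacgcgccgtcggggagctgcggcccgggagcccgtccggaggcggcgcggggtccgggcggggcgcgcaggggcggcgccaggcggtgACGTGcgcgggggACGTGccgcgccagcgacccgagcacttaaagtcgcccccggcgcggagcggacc
BSG (chr19:572346-572595, plus strand): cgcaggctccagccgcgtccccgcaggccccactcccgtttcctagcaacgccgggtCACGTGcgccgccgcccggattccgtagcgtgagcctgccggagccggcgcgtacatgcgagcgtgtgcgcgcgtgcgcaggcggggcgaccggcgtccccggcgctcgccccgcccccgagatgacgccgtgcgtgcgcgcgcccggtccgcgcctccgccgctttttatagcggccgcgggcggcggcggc
SLC4A2 (chr7:151062392-151062641, plus strand): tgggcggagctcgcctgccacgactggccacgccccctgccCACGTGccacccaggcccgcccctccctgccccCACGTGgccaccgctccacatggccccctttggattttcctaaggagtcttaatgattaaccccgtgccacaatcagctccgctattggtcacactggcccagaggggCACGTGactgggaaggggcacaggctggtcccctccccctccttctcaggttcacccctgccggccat

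Total counts per sample ran from 40915980 to 97984260, highest in HKC-8 cells, so that 3 counts, the limit that a count of 0 allows, stood for 0.0306 to 0.0733 CPM (counts per 1000000) of the total. Levels below are TMM-scaled CPM on 1 scale for all 18 samples, and fold changes come from edgeR's quasi-likelihood test within each line, called at a Benjamini-Hochberg adjusted p under 0.05. A list of 8 hypoxia-induced genes that includes CA9 and VEGFA rose in every tested case, 8 of 8 in HKC-8, 6 of 6 in RCC4 and 8 of 8 in HepG2 cells. Summed levels of 10 liver markers were 40361 to 52645 CPM in HepG2 cells, 9.17 to 11.4 in RCC4 and 0.264 to 0.552 in HKC-8 cells. Summed levels of 10 kidney lineage markers were 870.1 to 1217 CPM in RCC4, 156 to 199.6 in HKC-8 and 17.3 to 34.6 in HepG2 cells. In normoxic HKC-8 cells 2 of these 10 were at 0 in every sample and only 3 reached 10 counts in every sample, so its kidney identity rests on the label. The summed kidney markers of RCC4 cells were 1182 to 1217 CPM in normoxia and 870.1 to 949.6 in hypoxia, and the summed liver markers of HepG2 cells were 40361 to 42208 and 49007 to 52645 CPM. The summed levels of 7 mesenchymal markers did not overlap between hypoxia and normoxia in any line, at 1592 to 1773 against 1218 to 1481 CPM in HKC-8, 2748 to 2896 against 1842 to 1924 in RCC4, and 66.0 to 73.2 against 29.0 to 32.7 in HepG2 cells. Only 4 of these 7 in HKC-8 cells, and 3 in RCC4 and in HepG2 cells, reached 10 counts in every sample of a group, so each sum rests on few genes. In HepG2 cells the summed kidney markers were 17.3 to 22.2 CPM in normoxia and 31.7 to 34.6 in hypoxia, and those of 7 immune and endothelial markers 50.6 to 55.1 and 64.1 to 71.3 CPM. The immune and endothelial sums of the kidney lines were 8.71 to 14.1 CPM. The part of these marker shifts in the results below was not tested.

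Within each line SLC16A3 had the largest log2 fold change of the members tested, and most other members stayed within a narrow range. In HKC-8 cells 2 members rose (SLC16A1, SLC16A3), none fell, 4 did not pass the test and 2 were too low to be tested, against 20.4% of all 13536 genes called, 11.2% higher and 9.12% lower. In RCC4 cells 2 rose (SLC16A3, BSG), 2 fell (SLC4A2, SLC4A4), 3 did not pass and EMB was not tested, against 50.1% of 12811 genes called, 25.9% higher and 24.2% lower. In HepG2 cells 3 rose (SLC16A1, SLC16A3, BSG), 2 fell (SLC16A7, SLC4A2), 2 did not pass and EMB was not tested, against 39.1% of 13623 genes called, 19.9% higher and 19.2% lower. Non-overlapping groups, as described for single members below, were found for 39.2% (HKC-8), 56.6% (RCC4) and 49.7% (HepG2) of the genes tested. The median log2 fold change of the tested members was 0.025 for HKC-8 cells, -0.011 for RCC4 cells and 0.21 for HepG2 cells. That of all tested genes lay within 0.005 of 0 in each line. SLC16A3 was the only member called higher in all 3 lines, which held for 435 (3.81%) of the 11418 genes tested in all of them. No member was called lower in all 3, which held for 3.43% of those genes. As the values are shares of a library made from many cells, a change in every cell and a change in the number of cells that express a gene cannot be told apart.

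**Figure D1:**
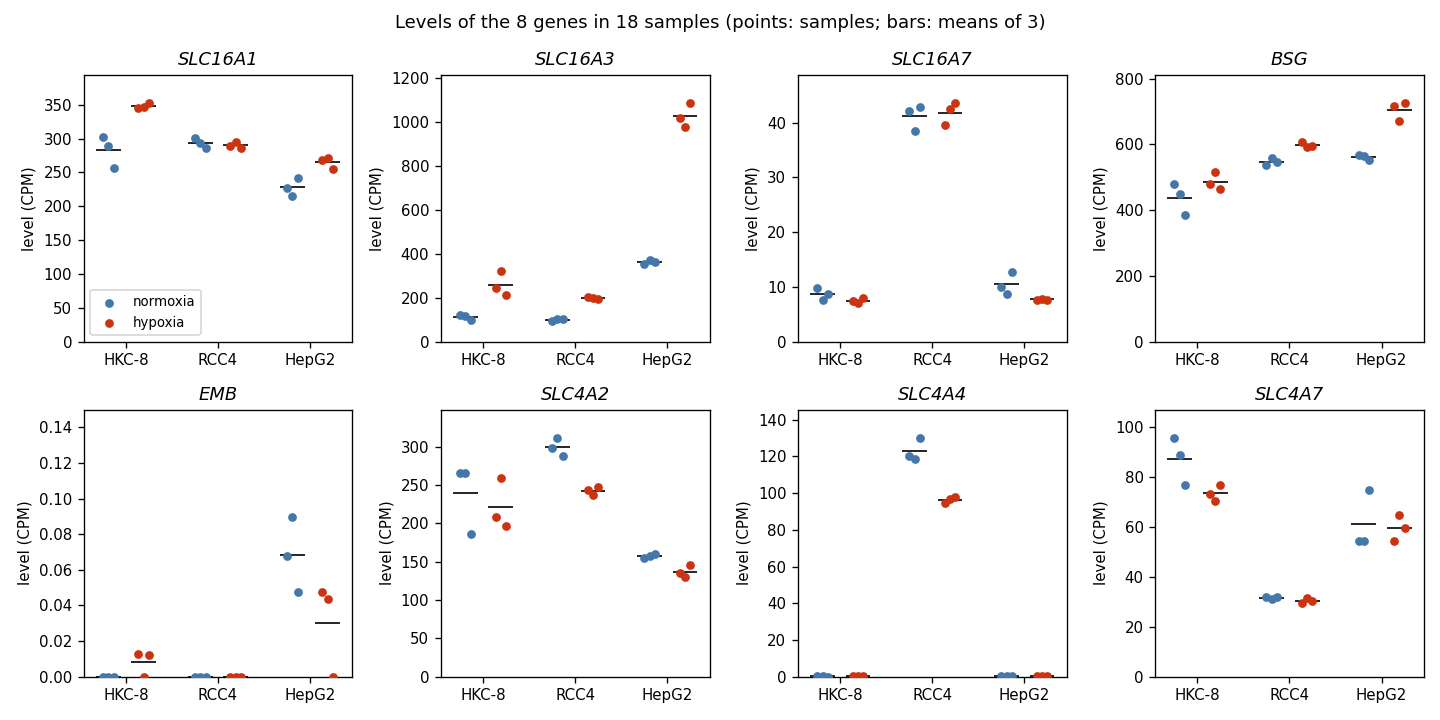
Levels (TMM-scaled CPM, linear axes from 0, a separate scale for each gene) of the 8 genes in normoxia (blue) and hypoxia (red), with each sample as a point and the mean of 3 as a bar. The HepG2 samples of SLC16A3 move from 355 to 373 CPM in normoxia to 976 to 1086 in hypoxia, and SLC4A4 is near 0 outside RCC4 cells.

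SLC16A3, encoding the export-type transporter MCT4, rose 1.98- to 2.82-fold in the 3 lines. In HKC-8 cells its level was 121, 118 and 101 CPM in the normoxic and 244, 321 and 213 CPM in the hypoxic replicates 1 to 3, a log2 fold change of 1.19 (SE 0.15, edgeR adjusted p = 0.00111), or 2.29-fold. The second hypoxic sample stood highest, and the groups did not overlap. In RCC4 cells the levels were 96.3, 103 and 103 CPM in normoxia and 202, 200.3 and 196 CPM in hypoxia, a log2 fold change of 0.99 (SE 0.04, edgeR adjusted p = 4.48e-16), or 1.98-fold. The groups did not overlap. In HepG2 cells the levels were 355, 373 and 362 CPM in normoxia and 1019.8, 976 and 1086 CPM in hypoxia, a log2 fold change of 1.50 (SE 0.06, edgeR adjusted p = 8.67e-10), or 2.82-fold. Every normoxic HepG2 sample was above every hypoxic sample of the kidney lines. By log2 fold change SLC16A3 ranked 516 of 13536 genes for HKC-8 cells, 298 of 12811 for RCC4 cells and 302 of 13623 for HepG2 cells, and the call was kept in every alternative analysis.

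SLC16A1, encoding the widely expressed transporter MCT1, changed little. In HKC-8 cells it was 302, 289 and 256 CPM in normoxia and 346, 346 and 352 CPM in hypoxia, a log2 fold change of 0.30 (SE 0.08, edgeR adjusted p = 0.0323). The groups did not overlap, but the call was lost in 5 of the 6 fits that left out 1 sample (edgeR adjusted p = 0.0597 to 0.101) and was kept only without hypoxic replicate 2 (edgeR adjusted p = 0.0454). With the replicate number as a block the adjusted p was 0.00340 in edgeR. In HepG2 cells SLC16A1 was 228, 215 and 242 CPM in normoxia and 269, 271 and 255 CPM in hypoxia, a log2 fold change of 0.21 (SE 0.06, edgeR adjusted p = 0.0124), which was lost without hypoxic replicate 1 (0.0605) or 2 (0.0622). In RCC4 cells it was 300.2, 294 and 287 CPM in normoxia and 288, 295 and 287 CPM in hypoxia, with overlapping groups and a log2 fold change of -0.01 (SE 0.03, edgeR adjusted p = 0.808).

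SLC16A7, encoding MCT2, was the least expressed of the 3 transporters in every group. In HepG2 cells it was 9.99, 8.75 and 12.7 CPM in normoxia and 7.57, 7.88 and 7.71 CPM in hypoxia, a log2 fold change of -0.44 (SE 0.13, edgeR adjusted p = 0.0150). The third normoxic sample stood highest, and without it the log2 fold change was -0.29 and no longer called (edgeR adjusted p = 0.0543). HKC-8 cells had 9.80, 7.65 and 8.71 CPM in normoxia and 7.36, 7.10 and 7.99 CPM in hypoxia, overlapping groups with a log2 fold change of -0.22 (SE 0.13, edgeR adjusted p = 0.280). RCC4 cells had more of it, 42.1, 38.5 and 42.9 CPM in normoxia and 39.5, 42.4 and 43.5 CPM in hypoxia, with a log2 fold change of 0.03 (SE 0.05, edgeR adjusted p = 0.682).

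BSG, encoding basigin, the chaperone shared by MCT1 and MCT4, was abundant in every sample. In HepG2 cells it was 568, 564 and 554 CPM in normoxia and 718, 672 and 725 CPM in hypoxia, a log2 fold change of 0.33 (SE 0.06, edgeR adjusted p = 0.000743). In RCC4 cells it was 539, 558 and 547 CPM in normoxia and 608, 592 and 595 CPM in hypoxia, a log2 fold change of 0.13 (SE 0.03, edgeR adjusted p = 0.00101). The groups did not overlap in either line, but in 1 fit of all 18 samples, which shares the spread between lines, the RCC4 call was lost (edgeR adjusted p = 0.196). In HKC-8 cells BSG was 480.5, 448 and 386 CPM in normoxia and 479, 515 and 466 CPM in hypoxia, overlapping groups with a log2 fold change of 0.16 (SE 0.10, edgeR adjusted p = 0.280). Without normoxic replicate 3 it was 0.070 and without normoxic replicate 1 it was 0.22, and neither was called.

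EMB, encoding embigin, the chaperone of MCT2, was at or near 0 throughout. It had 0 counts in all 6 RCC4 samples and in the 3 normoxic HKC-8 samples, 1, 0 and 1 counts in hypoxic HKC-8 samples, 3, 4 and 2 counts in normoxic and 2, 2 and 0 counts in hypoxic HepG2 samples. No fold is given for it, and a count of 0 allows up to 3 counts, or 0.0306 to 0.0733 CPM of the total according to the sample. Its near-identical copy EMBP1 was counted separately at 44 to 146 counts in HKC-8, 0 in RCC4 and 33 to 79 in HepG2 samples. Because the authors removed reads that mapped to more than 1 place, EMB reads that match the copy equally well would not be in these counts.

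Of the bicarbonate transporters, the acid loader SLC4A2 was lower in hypoxia in 2 lines. RCC4 cells had 298, 311 and 288 CPM in normoxia and 243, 236 and 247 CPM in hypoxia, a log2 fold change of -0.30 (SE 0.04, edgeR adjusted p = 2.21e-07). HepG2 cells had 154, 158 and 159.6 CPM in normoxia and 136, 129.7 and 145 CPM in hypoxia, a log2 fold change of -0.20 (SE 0.06, edgeR adjusted p = 0.0170). Neither pair of groups overlapped, but the HepG2 call was lost in the fit of all 18 samples (edgeR adjusted p = 0.182) and without hypoxic replicate 1 (0.0710) or 2 (0.0999). HKC-8 cells had 265, 265 and 186 CPM in normoxia and 208, 259 and 196 CPM in hypoxia, widely overlapping, with a log2 fold change of -0.11 (SE 0.15, edgeR adjusted p = 0.653). Without normoxic replicate 3 it was -0.26 and without normoxic replicate 2 it was -0.025, and neither was called.

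SLC4A4, the cotransporter that carries bicarbonate across the basolateral membrane of the proximal tubule, was substantial only in RCC4 cells. There it was 121, 118 and 130.0 CPM in normoxia and 94.5, 96.6 and 98.0 CPM in hypoxia, a log2 fold change of -0.35 (SE 0.04, edgeR adjusted p = 2.76e-07). The groups did not overlap, and in the fit of all 18 samples the edgeR adjusted p was 0.0715. In HKC-8 cells, the line labelled as proximal tubule, it had 6, 6 and 1 counts in normoxia and 26, 8 and 22 counts in hypoxia, at most 0.326 CPM, too few to be tested in the fit of that line. These groups did not overlap, and in the fit of all 18 samples the log2 fold change was 2.04 (edgeR adjusted p = 0.00758). Within the line it was called without hypoxic replicate 2 (2.50, edgeR adjusted p = 0.0275), but not with no filter on low counts (2.08, edgeR adjusted p = 0.0767) or without normoxic replicate 1 (0.144), 2 (0.112) or 3 (0.131). In HepG2 cells SLC4A4 had 10, 3 and 10 counts in normoxia and 18, 13 and 5 in hypoxia, overlapping, with a log2 fold change of 0.67 (SE 0.55, edgeR adjusted p = 0.362). Without hypoxic replicate 1 it was 0.25 and without hypoxic replicate 3 it was 0.99, and neither was called.

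SLC4A7, the electroneutral cotransporter that extrudes acid equivalents, was not called in any line. In HKC-8 cells it was 95.7, 88.8 and 76.9 CPM in normoxia and 73.2, 70.6 and 76.8 CPM in hypoxia, a log2 fold change of -0.24 (SE 0.09, edgeR adjusted p = 0.0953). The lowest normoxic and the highest hypoxic sample nearly met. With the replicate number as a block SLC4A7 was called lower (log2 fold change -0.24, edgeR adjusted p = 0.0291), though whether the numbers mark pairs is not known. The block also raised the share of all genes called in HKC-8 cells from 20.4% to 42.5%. SLC4A7 was also called without normoxic replicate 3 (log2 fold change -0.33, edgeR adjusted p = 0.0233). RCC4 cells had 32.1, 30.9 and 32.1 CPM in normoxia and 29.5, 31.6 and 30.2 CPM in hypoxia (log2 fold change -0.05, SE 0.05, edgeR adjusted p = 0.442). HepG2 cells had 54.4, 54.5 and 74.8 CPM in normoxia and 54.3, 65.0 and 59.5 CPM in hypoxia (log2 fold change -0.04, SE 0.11, edgeR adjusted p = 0.816).

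**Figure D2:**
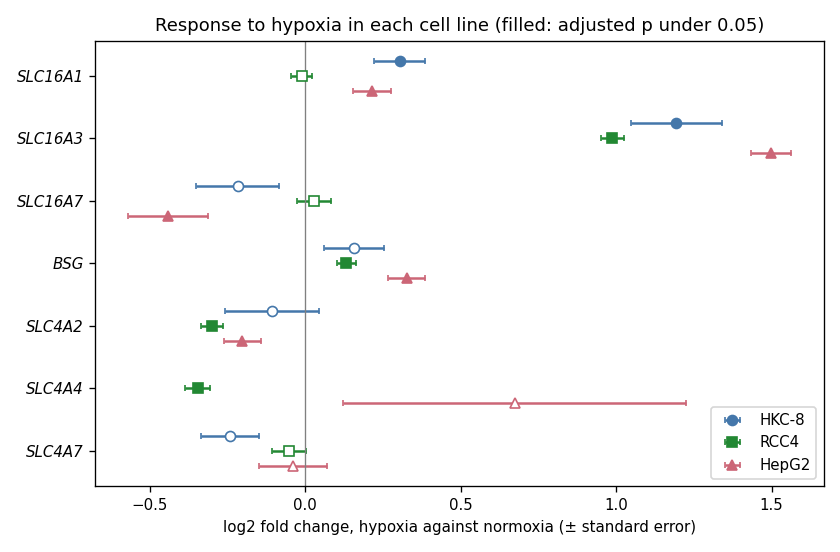
Log2 fold change of hypoxia against normoxia with its standard error for 7 genes in HKC-8 (circles), RCC4 (squares) and HepG2 (triangles) cells, filled where the edgeR adjusted p is under 0.05. EMB, and SLC4A4 in HKC-8 cells, were too low to be tested and are not drawn, and SLC16A3 lies at 0.99 to 1.50, to the right of every other gene.

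Whether the lines differed in response was tested as an interaction of line and oxygen in fits of 12 samples. For HKC-8 and HepG2 cells the sample characteristics give the same exposure, but the titles give 0.1% and 0.5% oxygen. Between these lines edgeR called none of the 7 members tested, against 9.3% of 15046 genes (4.28% higher and 5.02% lower). No member had an unadjusted p under 0.05, and DESeq2 also called none. The response of SLC16A3 was lower in HKC-8 cells by -0.31 on the log2 scale (SE 0.17, edgeR adjusted p = 0.289). This difference was called with the replicate block (-0.32, edgeR adjusted p = 0.0470) and without HKC-8 hypoxic replicate 2, its highest hypoxic sample (-0.48, edgeR adjusted p = 0.0178). Over the alternative settings it ranged from -0.48 to -0.18, and in 16 of 18 it stayed uncalled.

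Between RCC4 and HKC-8 cells, 2 of the 7 members tested were called, both lower in RCC4, against 15.2% of 14203 genes (7.87% higher and 7.29% lower). The SLC16A1 response was lower in RCC4 cells by -0.33 (SE 0.08, edgeR adjusted p = 0.0127), a call lost without RCC4 normoxic replicate 2 (0.0526), hypoxic replicate 1 (0.0506) or hypoxic replicate 3 (0.0569). The SLC4A4 response was lower in RCC4 cells by -2.41 (SE 0.54, edgeR adjusted p = 0.00897), but on the HKC-8 side it rests on the 1 to 26 counts given above. SLC16A3 did not pass this test (-0.22, SE 0.16, edgeR adjusted p = 0.386). Its difference ranged from -0.33 to -0.026 over the alternative settings and was called in none.

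Between RCC4 and HepG2 cells, 4 of the 7 members tested were called, 1 higher and 3 lower in RCC4, against 22.6% of 14813 genes (10.9% higher and 11.7% lower). The SLC16A3 response was lower in RCC4 cells by -0.52 (SE 0.07, edgeR adjusted p = 2.41e-05), a call kept in every alternative analysis. Those of SLC16A1 (-0.23, SE 0.07, edgeR adjusted p = 0.0166) and BSG (-0.20, SE 0.06, edgeR adjusted p = 0.0253) were also lower, and that of SLC16A7 was higher (0.46, SE 0.14, edgeR adjusted p = 0.0192). These 3 calls were lost in the fit of all 18 samples (edgeR adjusted p = 0.0877 for SLC16A1, 0.194 for BSG and 0.0648 for SLC16A7). For SLC4A4 the difference was -1.04 (SE 0.42, edgeR adjusted p = 0.0884), which DESeq2 called (adjusted p = 0.0317) and which was -0.62 without HepG2 hypoxic replicate 1 (edgeR adjusted p = 0.418).

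In normoxia the lines differed in most members, as they did in most genes, and the 3 comparisons share their samples. RCC4 cells had more SLC16A7, BSG, SLC4A2 and SLC4A4 and less SLC4A7 than HKC-8 cells, 5 of 7 tested against 80.8% of 14806 genes (39.4% higher and 41.4% lower). The log2 differences were 2.25 (SE 0.13) for SLC16A7, 0.33 (SE 0.08) for BSG, 0.34 (SE 0.11) for SLC4A2, 11.19 (SE 0.22) for SLC4A4 and -1.45 (SE 0.12) for SLC4A7, with edgeR adjusted p-values of 0.0106 or less. Without HKC-8 normoxic replicate 3, the lowest of its group, the SLC4A2 difference was 0.17 and still called. SLC16A1 (0.07, edgeR adjusted p = 0.412) and SLC16A3 (-0.16, edgeR adjusted p = 0.0625) did not pass. SLC16A3 did without HKC-8 normoxic replicate 3 (-0.25, edgeR adjusted p = 0.00166) and without HepG2 normoxic replicate 2 (0.0463) or 3 (0.0495). It also did with no filter on low counts (-0.17, edgeR adjusted p = 0.0465). In 10 of 14 alternative settings SLC16A3 stayed uncalled, and its difference ranged from -0.25 to -0.11.

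HepG2 cells had more SLC16A3, BSG and SLC4A4 and less SLC16A1, SLC4A2 and SLC4A7 than HKC-8 cells, 6 of 7 tested against 83% of genes (42.6% higher and 40.5% lower). The log2 differences were 1.70 (SE 0.08) for SLC16A3, 0.38 (SE 0.08) for BSG, -0.29 (SE 0.07) for SLC16A1, -0.58 (SE 0.11) for SLC4A2 and -0.49 (SE 0.11) for SLC4A7 (CSNK1D, which overlaps SLC16A3, also differed, by 0.39), with edgeR adjusted p-values of 0.0023 or less. Without HKC-8 normoxic replicate 3 the BSG difference was 0.24 and still called. For SLC4A4 the log2 difference was 1.77 (SE 0.54, edgeR adjusted p = 0.00759), with 3 to 10 counts against 1 to 6 and overlapping groups, and it was lost without HepG2 normoxic replicate 3 (1.46, edgeR adjusted p = 0.0558). SLC16A7 did not pass (0.29, SE 0.13, edgeR adjusted p = 0.0607), but did without HKC-8 normoxic replicate 1 (0.0317) or HepG2 normoxic replicate 2 (0.0336), in DESeq2 (0.0418) and in 2 other fits. The log2 difference fell to 0.074 without HepG2 normoxic replicate 3 (edgeR adjusted p = 0.582).

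Against RCC4 cells, HepG2 cells had more SLC16A3 and SLC4A7 and less SLC16A1, SLC16A7, SLC4A2 and SLC4A4, 6 of 7 tested against 83.3% of genes (45.3% higher and 38.1% lower). The log2 differences were 1.86 (SE 0.08) for SLC16A3, 0.96 (SE 0.12) for SLC4A7, -0.36 (SE 0.07) for SLC16A1, -1.96 (SE 0.13) for SLC16A7, -0.92 (SE 0.11) for SLC4A2 and -9.42 (SE 0.20) for SLC4A4, with edgeR adjusted p-values of 0.000459 or less. CSNK1D was also higher in HepG2 cells, by 1.01. The median over all genes was 0.11 in this comparison, so each difference stands relative to that shift. BSG did not pass (0.04, SE 0.08, edgeR adjusted p = 0.603).

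Across the 6 groups the members kept distinct orders. SLC16A3 was highest in HepG2 hypoxia (mean 1027 ± 55.2 CPM, SD, n = 3), then HepG2 normoxia (364 ± 9.13), HKC-8 hypoxia (259 ± 55.7), RCC4 hypoxia (199 ± 3.23), HKC-8 normoxia (114 ± 11.1) and RCC4 normoxia (101 ± 3.93), where only the last 2 neighbours overlapped. SLC16A1 spanned a narrower range, from 348 ± 3.44 CPM in HKC-8 hypoxia to 228 ± 13.4 CPM in HepG2 normoxia (SD, n = 3), and the 4 groups in between overlapped each with the next among them but with neither end. BSG was highest in HepG2 hypoxia (705 ± 28.9 CPM) and lowest in HKC-8 normoxia (438 ± 48.2 CPM). SLC4A2 was highest in RCC4 normoxia (299 ± 11.4 CPM) and lowest in HepG2 hypoxia (137 ± 7.79 CPM), whereas SLC4A7 was highest in HKC-8 normoxia (87.1 ± 9.52 CPM) and lowest in RCC4 hypoxia (30.4 ± 1.08 CPM).

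Levels were compared between genes as CPM per kilobase of merged exons, which assumes that all annotated exons are used. On this scale BSG was the highest member in all 6 groups, from 99.1 ± 10.9 (SD, n = 3) in HKC-8 normoxia to 160 ± 6.53 in HepG2 hypoxia. SLC16A1 came next in both kidney lines, at 44.5 ± 3.70 in normoxic and 54.8 ± 0.542 in hypoxic HKC-8 cells and at 46.2 ± 1.08 and 45.7 ± 0.716 in RCC4 cells. SLC16A3 came next in HepG2 cells, at 39.4 ± 0.988 in normoxia and 111 ± 5.97 in hypoxia, against 35.9 ± 2.11 and 41.7 ± 1.37 for SLC16A1.

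The balance of MCT4 to MCT1 transcripts was taken as the log2 ratio of SLC16A3 to SLC16A1 per kilobase in each sample. In HKC-8 cells the log2 ratio was -1.85, -1.83 and -1.89 in normoxia and -1.04, -0.65 and -1.27 in hypoxia. In RCC4 cells it was -2.18, -2.05 and -2.02 in normoxia and -1.06, -1.10 and -1.09 in hypoxia. In HepG2 cells it was 0.10, 0.26 and 0.042 in normoxia and 1.38, 1.31 and 1.55 in hypoxia. Every kidney sample thus had more SLC16A1 than SLC16A3 per kilobase of merged exons and every HepG2 sample more SLC16A3, in normoxia and hypoxia alike. This order between genes depends on the lengths taken. The mean log2 ratio in hypoxia exceeded that in normoxia by 0.87 (SE 0.18) for HKC-8, 1.00 (SE 0.05) for RCC4 and 1.28 (SE 0.10) for HepG2 cells, and the groups did not overlap in any line (two-sided exact permutation p = 0.1 in each, the smallest that 3 against 3 samples allow). With the longest transcript as the length the ratios shifted upwards alike in all samples, to -0.25 in the second hypoxic HKC-8 sample, without changing this order. The differences cannot change, as the lengths are the same in every sample.

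The share of SLC16A3 in the summed transcripts of the 3 transporters per kilobase was 21.4 ± 0.365% in normoxic and 33.4 ± 4.86% in hypoxic HKC-8 cells (SD, n = 3). It was 18.2 ± 0.871% and 30.7 ± 0.396% in RCC4 cells, and 51.8 ± 1.96% and 72.4 ± 1.69% in HepG2 cells. SLC16A7 made up 4.99 ± 0.312% of the sum in normoxic RCC4 cells and 1.11 ± 0.146% or less, as a mean, in the groups of the other lines. The hypoxic sum was 1.45-fold (HKC-8), 1.17-fold (RCC4) and 2.02-fold (HepG2) the normoxic sum, without overlap in any line (two-sided exact permutation p = 0.1 in each). Relative to this sum, BSG had a lower level in hypoxia, with a log2 difference of -0.38 (SE 0.03) for HKC-8, -0.10 (SE 0.03) for RCC4 and -0.69 (SE 0.03) for HepG2 cells, again without overlap (two-sided exact permutation p = 0.1 in each). With the longest transcript as length the RCC4 difference was -0.15. In hypoxic HepG2 cells BSG and the sum of the 3 transporters were nearly equal per kilobase of merged exons. Their log2 ratio was 0.056 ± 0.027 (SD, n = 3), against 0.74 ± 0.05 in normoxia, and these levels depend on the lengths taken.

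**Figure D3:**
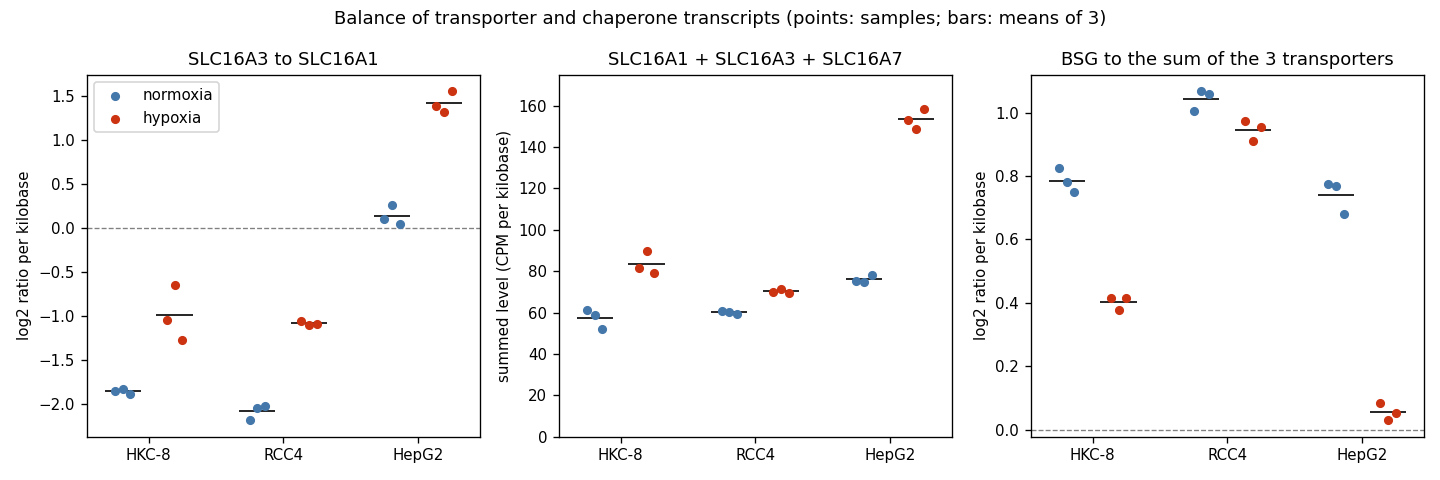
Left, log2 ratio of SLC16A3 to SLC16A1 per kilobase, centre, summed level of SLC16A1, SLC16A3 and SLC16A7 (CPM per kilobase, axis from 0), right, log2 ratio of BSG to that sum, in normoxia (blue) and hypoxia (red), with samples as points and the means of 3 as bars. Dashed lines mark equal levels per kilobase of merged exons. In hypoxia the HepG2 sum is 2.02-fold that in normoxia while the log2 ratio of BSG to it is near 0 with these lengths.

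The genes whose log2 CPM followed a member most closely were found after each line's mean was removed, over 18 samples and the 11418 genes tested in all 3 lines, as a description of samples that share libraries and the hypoxia contrast. SLC16A3 was followed by ALDOA (r = 0.991), a glycolytic aldolase, PGAM1 (r = 0.985), the glycolytic phosphoglycerate mutase, and RNASET2 (r = 0.983), a lysosomal ribonuclease. The log2 fold changes of ALDOA were 0.93 (HKC-8), 0.91 (RCC4) and 1.50 (HepG2). SLC16A1 was followed by PDE9A (r = 0.933), IRF2BP2 (r = 0.904) and KLF10 (r = 0.893), and BSG by RASSF7 (r = 0.965), AGRN (r = 0.949) and SLCO4A1 (r = 0.946). The search was made for these 3 members and SLC4A4, which was not tested in all 3 lines and so gave no genes, and not for the others. Of these 9 genes, only 1 to 3 stayed among the top 3 of their member when a line was left out.

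Beyond the members, the genes of lactate formation were led by LDHA, the lactate dehydrogenase subunit that favours lactate formation. LDHA rose in all 3 lines, from 2268 ± 133 to 6264 ± 405 CPM in HKC-8, from 2598 ± 44.2 to 8828 ± 104 CPM in RCC4 and from 1229 ± 82.7 to 4166 ± 85.8 CPM in HepG2 cells (SD, n = 3). Its log2 fold changes were 1.47, 1.77 and 1.76 (edgeR adjusted p = 2.08e-05, 2.41e-23 and 2.14e-10). The counts of the lists here and below stand against 11.2% of all tested genes called higher and 9.12% lower in HKC-8, 25.9% and 24.2% in RCC4, and 19.9% and 19.2% in HepG2 cells, and with so few genes per list nothing particular to a list is read from them. Of the 12 genes of lactate and pyruvate handling, 1 of 7 tested rose in HKC-8 cells, 2 rose and 2 fell of 5 in RCC4 cells, and 2 rose and 2 fell of 7 in HepG2 cells. HCAR1, the lactate receptor, rose in HepG2 cells (log2 fold change 1.27, edgeR adjusted p = 1.83e-06), and MPC2, a subunit of the mitochondrial pyruvate carrier, fell in RCC4 cells (-0.17, edgeR adjusted p = 0.000249). The other calls, named after their values were seen, were LDHB lower and NPTN higher in RCC4 cells and MPC1 and MPC2 lower in HepG2 cells. The list's median log2 fold change was -0.22, -0.10 and 0.0054 in HKC-8, RCC4 and HepG2 cells.

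Of the 11 other SLC16 genes, 2 of 9 tested rose in HKC-8 cells (11.2% of all genes), 1 rose and 2 fell of 8 in RCC4 cells (25.9% and 24.2%), and 2 rose and 1 fell of 6 in HepG2 cells (19.9% and 19.2%). The RCC4 counts are at or below the shares of all genes. In HKC-8 cells these were SLC16A12 (log2 fold change 1.26, edgeR adjusted p = 0.00175) and SLC16A13 (1.21, edgeR adjusted p = 0.000637). In RCC4 cells SLC16A9 rose (0.22, edgeR adjusted p = 0.0269) and SLC16A13 fell (-0.33, edgeR adjusted p = 0.0127), and in HepG2 cells SLC16A6 rose (1.17, edgeR adjusted p = 1.60e-05). SLC16A4 in RCC4 and SLC16A10 in HepG2 cells, named after their values were seen, were the other genes that fell. No gene of this list was called in the same direction in all 3 lines, and its median log2 fold change was 0.35, 0.13 and 0.28 in HKC-8, RCC4 and HepG2 cells.

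Of the 7 other SLC4 genes, 1 of 4 tested rose in HKC-8 cells (11.2% of all genes), 1 of 4 fell in RCC4 cells (24.2%) and 2 of 5 rose in HepG2 cells (19.9%), the RCC4 count being at the share of all genes. SLC4A5, a sodium-bicarbonate cotransporter, rose in HKC-8 cells (log2 fold change 1.28, edgeR adjusted p = 0.00014). SLC4A11 fell in RCC4 cells (-0.57, edgeR adjusted p = 0.00136) and rose in HepG2 cells (0.53, edgeR adjusted p = 2.08e-05), where SLC4A3, an anion exchanger, also rose (0.81, edgeR adjusted p = 0.00869). Of the 9 sodium-proton exchangers, which export protons in exchange for sodium, none fell, and 1 of 5 rose in HKC-8 cells (SLC9A5, 0.59, edgeR adjusted p = 0.0150), 2 of 7 in RCC4 cells (SLC9A7, 0.26, and SLC9A8, 0.24, edgeR adjusted p = 0.0130 and 0.00239) and 1 of 6 in HepG2 cells (SLC9A7, 0.36, edgeR adjusted p = 0.0131). The shares of all genes called higher were 11.2%, 25.9% and 19.9%, and the RCC4 and HepG2 counts are close to them. SLC9A7 and SLC9A8 act mainly in internal membranes. The median log2 fold changes in HKC-8, RCC4 and HepG2 cells were 0.13, -0.11 and 0.13 for the SLC4 and 0.079, 0.24 and -0.0069 for the SLC9 list.

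Of 5 carbonic anhydrases, which hydrate carbon dioxide to bicarbonate and a proton, 2 of 3 tested rose in HKC-8 cells, the 1 tested in RCC4 cells fell and 2 of 4 rose in HepG2 cells. The surface enzymes CA9 and CA12 rose by log2 fold changes of 4.92 and 0.88 in HKC-8 cells and 8.45 and 1.75 in HepG2 cells, and the cytosolic CA2 fell by 0.89 in RCC4 cells (edgeR adjusted p = 0.00111 or less for each). CA9 (0 in every normoxic sample and 0.0886 ± 0.0317 CPM in hypoxia, SD, n = 3) and CA12 were too low to be tested in RCC4 cells. Of 24 subunits of the V-ATPase, the proton pump of endosomes and lysosomes, 1 rose and 1 fell of 20 tested in HKC-8 cells, 1 rose and 13 fell of 20 in RCC4 cells, and 13 fell of 19 in HepG2 cells. Those that fell in RCC4 and HepG2 cells compare with 24.2% and 19.2% of all genes called lower. ATP6V1E1 fell in all 3 lines (log2 fold changes -0.28, -0.19 and -0.46 in HKC-8, RCC4 and HepG2 cells). ATP6V0B fell most in both RCC4 (-0.49) and HepG2 cells (-0.80), where ATP6V0A2 was next (-0.54), while ATP6AP2 rose in RCC4 cells (0.43) and ATP6V1E2 in HKC-8 cells (0.66). The median log2 fold change of this list was -0.12, -0.17 and -0.25 in HKC-8, RCC4 and HepG2 cells.

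**Figure D4:**
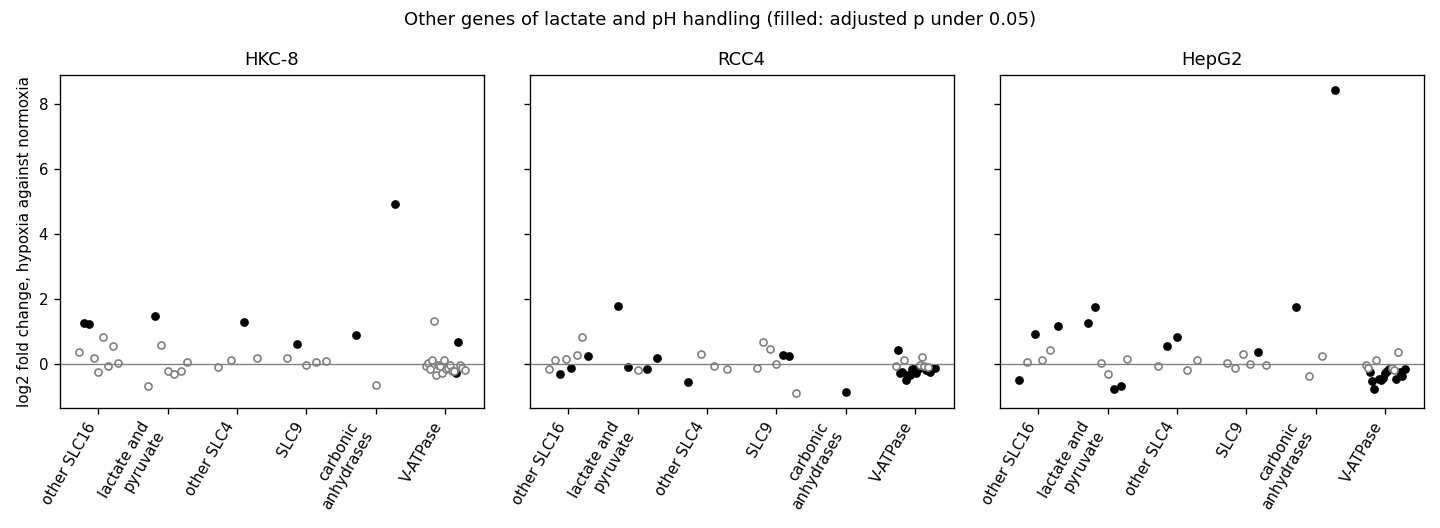
Log2 fold change of hypoxia against normoxia of the tested genes of 6 lists in each line, each point a gene, filled where the edgeR adjusted p is under 0.05. The highest point in HKC-8 (4.92) and HepG2 cells (8.45) is CA9, and in RCC4 and HepG2 cells 13 V-ATPase subunits lie below 0 and are filled.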

How the data were processed

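The deposited values are raw counts per gene and sample. Per the labels and the study's methods, the authors trimmed reads with Trim Galore 0.3.3, aligned them to GRCh37 with TopHat2 2.0.8b and Bowtie 1.0.0, removed reads that did not map uniquely with SAMtools 0.1.19 and counted them on UCSC genes with HTSeq 0.5.4p3 in intersection-strict mode. This lowers counts of genes with close copies or overlapping neighbours.

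Counts were analysed here with edgeR 4.0.16 in R 4.3.3 (filterByExpr, TMM, glmQLFit, glmQLFTest, Benjamini-Hochberg over all genes tested, called under 0.05), per line (6 samples), as interactions (12 samples) and over the 9 normoxic samples. The standard error is the log2 fold change divided by the square root of F. Python 3.11.15 and SciPy 1.17.1 gave exact permutation tests. The scripts were tested on simulated data. Exon lengths are from GENCODE on GRCh37. Replicates differed by more than sampling noise in every pair (chi-square per degree of freedom 4.57 or more).

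The members and lists were chosen with earlier results of these data known. Named are all members and, of each list, genes called alike in 3 lines and the 2 largest changes called per line. A gene that this rule names is not reported here. Same-numbered HKC-8 samples deviated together with r = 0.113, 0.469 and 0.456 for replicates 1 to 3. With the numbers in the labels this is the only sign of pairing. The value of replicate 1 lies within the range of HepG2 cells (0.061 to 0.181), and RCC4 cells had r from -0.011 to 0.033. Samples of different numbers were not compared, so whether the numbers mark pairs was not tested. Alternatives were DESeq2 1.42.0, a replicate block, median-of-ratios scaling, no filter on low counts or a stricter one (10 counts in each sample), all 18 samples in 1 fit, each sample left out and another gene length. For the transporter sum and its ratio to BSG the alternatives were chosen after seeing the data.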

Additional observations from a re-analysis of the deposited data

Results flagged for a closer look

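The difference in response to hypoxia between 2 lines passed the interaction test (edgeR, adjusted p under 0.05) for 6 member and line pairs. RCC4 was in every pair, and its labels give another oxygen level and duration, so that line and exposure cannot be told apart. With the replicate number as a block SLC16A3 was also called between HKC-8 and HepG2 cells (-0.32, edgeR adjusted p = 0.0470), without RCC4. The titles of these 2 lines give different oxygen levels, though their characteristics give the same. Against HKC-8 cells, the RCC4 response differed by -0.33 on the log2 scale for SLC16A1, where all 3 hypoxic HKC-8 samples were above all normoxic samples and the RCC4 groups overlapped. For SLC4A4 the difference was -2.41, with 1 to 26 counts in HKC-8 samples. Against HepG2 cells, the RCC4 response differed by -0.23 for SLC16A1, -0.52 for SLC16A3, 0.46 for SLC16A7 and -0.20 for BSG. SLC16A3 and BSG were higher in all 3 hypoxic samples than in all 3 normoxic samples of both lines. What sets these differences was not tested.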

How the results depend on the processing

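Of the alternative values of members tested as reported, 845 kept their direction and side of the threshold, 15 gained a call, 28 lost one and 17 changed sign, none of them a called member. The replicate block added SLC4A7 in HKC-8 cells (log2 fold change -0.24, edgeR adjusted p = 0.0291) and SLC16A3 between HKC-8 and HepG2 cells (-0.32, edgeR adjusted p = 0.0470), where 1 member was then called in place of 0, and it changed no other member's call. With it 5755 genes in place of 2757 were called in HKC-8 cells, 3019 in place of 1399 between HKC-8 and HepG2 cells and 4071 in place of 2154 between RCC4 and HKC-8 cells. With the numbers as pairs, the log2 differences of the SLC16A3 to SLC16A1 ratio were the same 0.87, 1.00 and 1.28, with an exact sign-flip p of 0.25, the smallest that 3 pairs allow. The fit of 18 samples left 2 members called in RCC4 cells in place of 4, and 1 in place of 4 between RCC4 and HepG2 cells. It called 5013 genes in HKC-8 cells, 3286 in place of 6423 in RCC4 cells, 2219 between HKC-8 and HepG2 cells and 1886 in place of 3354 between RCC4 and HepG2 cells. A minimum of 10 counts in every sample removed SLC4A4 and left 1 called in place of 2 between RCC4 and HKC-8 cells. Leaving out 1 sample gave 1 to 3 members called in HKC-8, 3 to 5 in HepG2, 0 to 1 between HKC-8 and HepG2, 1 to 2 between RCC4 and HKC-8 and 2 to 4 between RCC4 and HepG2 cells, and it lowered the genes called to as few as 1013 in HKC-8 cells (without normoxic replicate 1) and 911 between HKC-8 and HepG2 cells (without HepG2 hypoxic replicate 1).

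Between RCC4 and HepG2 cells, leaving out 1 sample lost the calls of SLC16A1 (without RCC4 normoxic replicate 1, edgeR adjusted p = 0.0525), SLC16A7 (without RCC4 normoxic replicate 2 or hypoxic replicate 3, 0.0549 and 0.0505) and BSG in 5 of 12 fits (0.0571 to 0.0734). SLC4A4 was called there without HepG2 hypoxic replicate 3 (-1.34, edgeR adjusted p = 0.0234), and its other values without 1 sample reached -0.62 (0.418, without HepG2 hypoxic replicate 1). The SLC16A7 difference was 0.31 there without HepG2 normoxic replicate 3. Changes of sign all came from values near 0, with ranges over the fits without 1 sample of -0.030 to 0.00061 for SLC16A1 and -0.021 to 0.070 for SLC16A7 in RCC4 cells, and -0.12 to 0.12 for SLC4A7 in HepG2 cells. The ranges of differences in response were -0.028 to 0.17 for SLC4A2 between HKC-8 and HepG2, -0.11 to 0.047 for BSG between RCC4 and HKC-8, and -0.18 to 0.056 for SLC4A7 between RCC4 and HepG2 cells. In normoxia they were -0.015 to 0.11 for SLC16A1 between RCC4 and HKC-8 and -0.012 to 0.053 for BSG between HepG2 and RCC4 cells, and -0.020 for BSG with no filter. With the longest transcript as length, the log2 ratio of SLC16A3 to SLC16A1 was -1.46 and -0.59 in normoxic and hypoxic HKC-8 cells, -1.68 and -0.69 in RCC4 and 0.53 and 1.81 in HepG2 cells. The log2 difference of the sum of the 3 transporters was then 0.28 (RCC4) and 1.09 (HepG2), and the difference of BSG against it was -0.43, -0.15 and -0.77 in HKC-8, RCC4 and HepG2 cells. Of the 9 genes most like a member, 1, 2 and 3 were kept without HKC-8, RCC4 and HepG2 samples. With no filter EMB, at 2 to 4 counts in HepG2 and 0 in other normoxic samples, was called higher in HepG2 than in HKC-8 (edgeR adjusted p = 0.00714) and RCC4 cells (0.0202). Low counts limit EMB everywhere and SLC4A4 outside RCC4 cells, where a few counts per sample carry each value. Why these counts are low was not tested.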
